A study of Mus musculus with 3 samples.

Results

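The Myc and Max network comprises the transcription factors Myc, Mycl and Mycn, their obligate partner Max, and the antagonists Mxd1, Mxd3, Mxd4, Mxi1, Mnt and Mga. Its members were taken by gene symbol, as every probe set that the platform annotation assigns to 1 of these 10 genes and to no other. This gave 27 of the 45101 probe sets on the array, and 10 of 18194 genes. The rule uses no measured value, although the genes were proposed with earlier results of these data known.

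The series holds dendritic cells (DC) from the spleens of naive female C57BL/6 mice aged 6 to 8 weeks. After magnetic removal of T and B lymphocytes, plasmacytoid DC (pDC), CD11b+ conventional DC (CD11b+ cDC) and CD8+ conventional DC (CD8+ cDC) were isolated on a cell sorter. Each cell type is a single pool of 5 to 8 animals, from which 20 ng of RNA was amplified, labelled with biotin and hybridised to 1 Affymetrix array. All 3 groups share strain, age and sex, and the labels name no transgene, altered allele or agent. With 1 array per cell type there was no spread between samples to measure, so no test was run and no p-value is given. A gene counted as higher on an array where the fold over the other reached 2 and the reading exceeded 111, the background level. A fold against a signal at background is written as a bound.

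Myc proteins bind DNA as dimers with Max, at the hexamer called the E-box, and recruit coactivators that raise transcription of genes for growth, ribosome production and cell division. The Mxd proteins, Mxi1 and Mnt also dimerise with Max, but recruit SIN3 corepressors to the same sites, so the balance of the 2 kinds of dimer sets the output. Mga, the largest member, carries Max into a variant Polycomb repressive complex, PRC1.6. In mouse DC, Mycl is known as the paralog that mature conventional cells keep using while Myc is more a gene of dividing progenitors.

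The hexamer read by these dimers is shown where promoters of network genes, or of target genes that differed between arrays, held it. It is printed because the comparisons below turn on Max dimers. The letters searched were CACGTG, which reads the same on both strands, in 300 bases around each annotated start (250 before it and 50 from it on). Of 27025 genes with a RefSeq promoter on GRCm38.p6, 8.09% held it. Of the members, 9 had a promoter there and 3 of them held the hexamer, namely Max, Mxd4 and Mnt. It began 3 bases before the start of Max, 219 before that of Mxd4 and 123 before that of Mnt. Each line gives 30 bases, 5′ to 3′ on the gene's strand, with the hexamer in capitals.
Max, chr12:76962234-76962263, minus strand: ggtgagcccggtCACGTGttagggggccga
Mxd4, chr5:34187912-34187941, minus strand: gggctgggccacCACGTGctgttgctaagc
Mnt, chr11:74830789-74830818, plus strand: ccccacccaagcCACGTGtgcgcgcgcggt
Iars, chr13:49682049-49682078, plus strand: gaccaatcgccaCACGTGttgtttgtaggt
Pes1, chr11:3963965-3963994, plus strand: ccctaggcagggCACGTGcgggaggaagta
Slc16a1, chr3:104638452-104638481, plus strand: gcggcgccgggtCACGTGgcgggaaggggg
Tyms, chr5:30073669-30073698, minus strand: aaccacttctgtCACGTGggggcggggtct

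The last 4 of these genes belong to the MYC target lists described further on. In those lists 23 of 89 genes with a promoter, or 25.8%, held the hexamer. Among translation factors and chaperones 7 of 14 did, against 20% to 25% in the other target lists. Of the 23 holders, Eif4g1, Impdh2 and Phb were not matched on the array. Among the measured holders only the 4 printed reached 2-fold in any pair. Many targets that differed, among them Hk2, Mthfd2, Polr1a, Mcm5 and E2f2, were not among the holders. A match describes the letters in the window and is not evidence of binding.

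The sorted cells carried the markers of their labels. Siglech gave a signal of 106310 in pDC and 52.2 and 53.4, below background, in CD11b+ and CD8+ cDC. All 7 measured pDC markers were higher in pDC than in either cDC array. All 6 CD8+ cDC markers (among them Xcr1) were higher in CD8+ cDC than on both other arrays. All 5 CD11b+ cDC markers were higher in CD11b+ than in CD8+ cDC, and 4 were also higher there than in pDC. The other, Cd4, was 2.57-fold higher in pDC than in CD11b+ cDC. Between those arrays, 2 CD8+ cDC markers were higher in pDC (Cd8a 45.9-fold, Cadm1 11.5-fold) and 2 lower. Among 7 genes listed for both conventional subsets, 6 stood past 2-fold above pDC on each cDC array, and Flt3 did not. Genes above background numbered 10336 in pDC, 10403 in CD11b+ and 10390 in CD8+ cDC. The ratio of 3′ to 5′ control signal for Actb, a gauge of RNA integrity and amplification, was 5.71 in pDC, 2.91 in CD11b+ and 4.08 in CD8+ cDC. For Gapdh it was 16.2, 9.68 and 17.6, so CD11b+ cDC had the lowest ratio for both genes. Hybridization spike-ins differed by 0.36 (log2) for pDC minus CD11b+ cDC, by -0.64 for pDC minus CD8+ cDC and by 0.99 for CD8+ minus CD11b+ cDC. Scaled on them, the median gene shifted by -0.30, 0.65 and -0.95, and the share of calls on the side of the first-named array went from 51.2% to 34.8%, from 51.9% to 77.6% and from 49.0% to 7.87%. On the deposited scale a difference is measured against the median gene. Where a gene had another measured probe set, its log2 difference departed from that of the brightest with an SD of 0.86, 0.89 and 0.74 in these pairs. This is a spread between probe sets and not between animals.

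**Figure D1:**
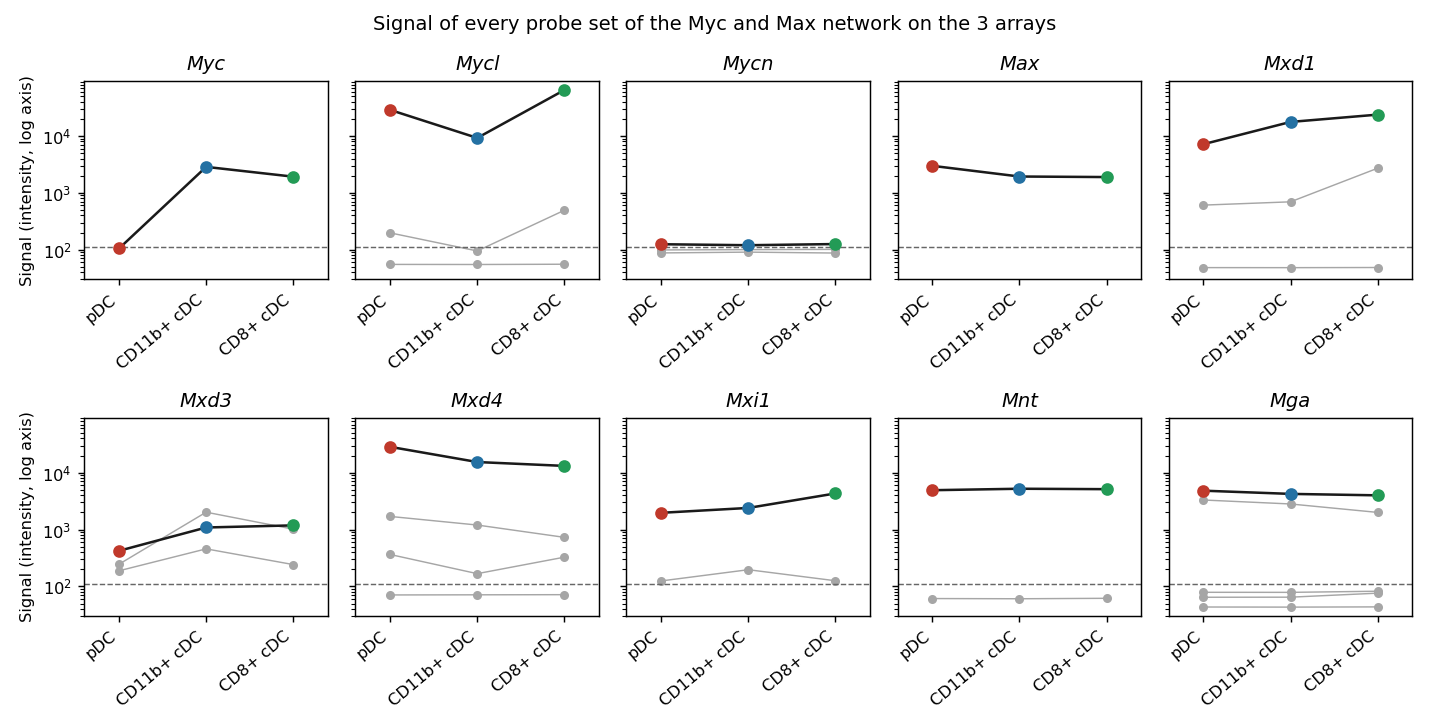
Signal (intensity, log axis) of each member probe set on the pDC, CD11b+ cDC and CD8+ cDC arrays, 1 panel per gene; coloured points are the probe set that stands for the gene, grey points its other probe sets, lines join the values of 1 probe set, and the dashed line is the background level of 111. Myc lay at background in pDC alone, Mycl was brightest in CD8+ cDC, and Mnt was nearly level.

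Myc, the growth regulator for which the family is named, was near background in pDC and well above it in both conventional subsets. Its single probe set (1424942_a_at) read 105 in pDC, 2857 in CD11b+ and 1922 in CD8+ cDC. The pDC value stood apart and the cDC values were 1.49-fold from each other. Relative to pDC, Myc was at least 25.7-fold higher in CD11b+ cDC and at least 17.3-fold higher in the CD8+ subset. These bounds depend on where background is set. With the 99th percentile of the same control genes, 412, in place of the 95th, the log2 difference of pDC fell from -4.68 to -2.79 against CD11b+ cDC and from -4.11 to -2.22 against CD8+ cDC. Myc had no second probe set to compare. With spike-in scaling CD8+ cDC also fell past 2-fold below CD11b+ cDC (log2 -1.57, from -0.57). Fewer cells with Myc RNA and less Myc RNA per cell cannot be told apart in such pools.

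Mycl, which encodes L-Myc, showed another order. Its brightest probe set (1434777_at) read 28677 in pDC, 9219 in CD11b+ and 64087 in CD8+ cDC. CD8+ cDC stood highest and CD11b+ cDC lowest, with a 6.95-fold difference between the conventional subsets. The pDC array lay between, 3.11-fold above CD11b+ cDC and 2.23-fold below CD8+ cDC. The dimmer probe set 1422088_at gave the same order, with 198 in pDC, 95 (below background) in CD11b+ and 493 in CD8+ cDC. By that probe set CD8+ cDC was at least 4.43-fold above CD11b+ cDC and 2.49-fold above pDC, while pDC was at least 1.78-fold above CD11b+ cDC. The remaining probe set lay below background on every array, between 54.9 and 55.5. Scaled on the spike-ins, Mycl kept a log2 difference of 1.80 between CD8+ and CD11b+ cDC, but its difference of pDC from CD8+ cDC shrank from -1.16 to -0.52, under 2-fold.

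Mycn, the paralog of neural and stem cell precursors, was barely detected. Its brightest probe set (1425922_a_at) read 125 in pDC, 120 in CD11b+ and 126 in CD8+ cDC, just above the background level, and its other 2 probe sets lay below it throughout, from 87.3 to 101. No difference between subsets reached 1.05-fold. Readings this dim carry little information, because probe sets below background on all arrays differed between arrays by a median of only 0.02 (log2), against 0.74 for probe sets above it.

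Max, the shared partner of every other member, was measured by 1 probe set (1423501_at), which read 2981 in pDC, 1935 in CD11b+ and 1892 in CD8+ cDC. The pDC array was highest, by 1.54-fold and 1.58-fold, and the conventional subsets differed by 1.02-fold. Neither pDC difference reached 2-fold on the deposited scale. With spike-in scaling the log2 difference of pDC from CD8+ cDC rose from 0.66 to 1.29 and passed it.

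The antagonists fell into a group lower in pDC (Mxd1, Mxd3 and, against CD8+ cDC, Mxi1) and 1 gene higher in pDC (Mxd4). Mxd1, the antagonist known for appearing as myeloid cells stop dividing and differentiate, read 7158 in pDC, 17630 in CD11b+ and 23688 in CD8+ cDC at its brightest probe set (1434830_at). The pDC array was lowest, by 2.46-fold against CD11b+ cDC and 3.31-fold against CD8+ cDC, and the cDC arrays were 1.34-fold apart. The second probe set (1455104_at) put CD11b+ cDC beside pDC instead, with 608 in pDC, 694 in CD11b+ and 2705 in CD8+ cDC. Both probe sets placed CD8+ cDC highest and more than 2-fold above pDC, and they disagreed about CD11b+ cDC. With the mean over probe sets the difference of pDC from CD11b+ cDC went from -1.30 (log2) to -0.75 and was no longer called, and CD8+ cDC rose to 1.19 above CD11b+ cDC. The remaining probe set lay below background on all arrays.

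Mxd3, the family member known for expression in cells in S phase, was lowest in pDC at all 3 of its probe sets. The brightest (1438847_at) read 422 in pDC, 1085 in CD11b+ and 1182 in CD8+ cDC, that is 2.57-fold and 2.80-fold above pDC. Probe set 1448878_at gave 246, 2016 and 1015 in the same order of arrays, and 1422970_at gave 188, 457 and 242. CD11b+ cDC exceeded pDC by 2.43-fold to 8.20-fold over the probe sets, and CD8+ cDC exceeded pDC by 1.29-fold to 4.13-fold. Which conventional subset was higher depended on the probe set, since the first put them 1.09-fold apart and the other 2 put CD11b+ cDC 1.89-fold and 1.99-fold above CD8+ cDC. With spike-in scaling the difference of pDC from CD8+ cDC shrank from -1.48 (log2) to -0.85 and was no longer called.

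Mxi1, a close relative of Mxd1, read 1967 in pDC, 2395 in CD11b+ and 4308 in CD8+ cDC (1450376_at, the brighter of 2). CD8+ cDC was highest, 2.19-fold above pDC and 1.80-fold above CD11b+ cDC. The dimmer probe set (1425732_a_at) ran close to background and did not show this order, with 125, 196 and 126. The call against pDC was lost with spike-in scaling, where the log2 difference went from -1.13 to -0.49, and with the mean over both probe sets.

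Mxd4, the antagonist known from resting and differentiated cells, was highest in pDC. Its brightest probe set (1434378_a_at) read 28405 in pDC, 15359 in CD11b+ and 13136 in CD8+ cDC, which is 1.85-fold and 2.16-fold. Probe set 1434379_at kept the order with 1698, 1199 and 729, and 1422574_at gave 364, 167 and 326. All 3 measured probe sets were brightest in pDC, by 1.42-fold to 2.17-fold over CD11b+ cDC and by 1.11-fold to 2.33-fold over CD8+ cDC. The remaining one lay below background. The call against CD8+ cDC was lost with the mean over probe sets, where the log2 difference went from 1.11 to 0.83, and spike-in scaling raised it to 1.75.

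Mnt, the widely expressed antagonist that restrains Myc in many tissues, read 4910 in pDC, 5211 in CD11b+ and 5121 in CD8+ cDC at its measured probe set (1418192_at). The largest difference was 1.06-fold. Mga read 4816, 4229 and 3988 in the same order at 1434746_at, with pDC 1.14-fold and 1.21-fold above the others. Its second measured probe set (1431232_a_at) gave 3303, 2812 and 1999, up to 1.65-fold, and its other 3 lay below background. Both genes stayed under 2-fold on the deposited scale. With spike-in scaling they stayed within 2-fold between pDC and either cDC array, and both were lower in CD8+ than in CD11b+ cDC (log2 -1.02 and -1.08), where the median gene stood at -0.95.

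**Figure D2:**
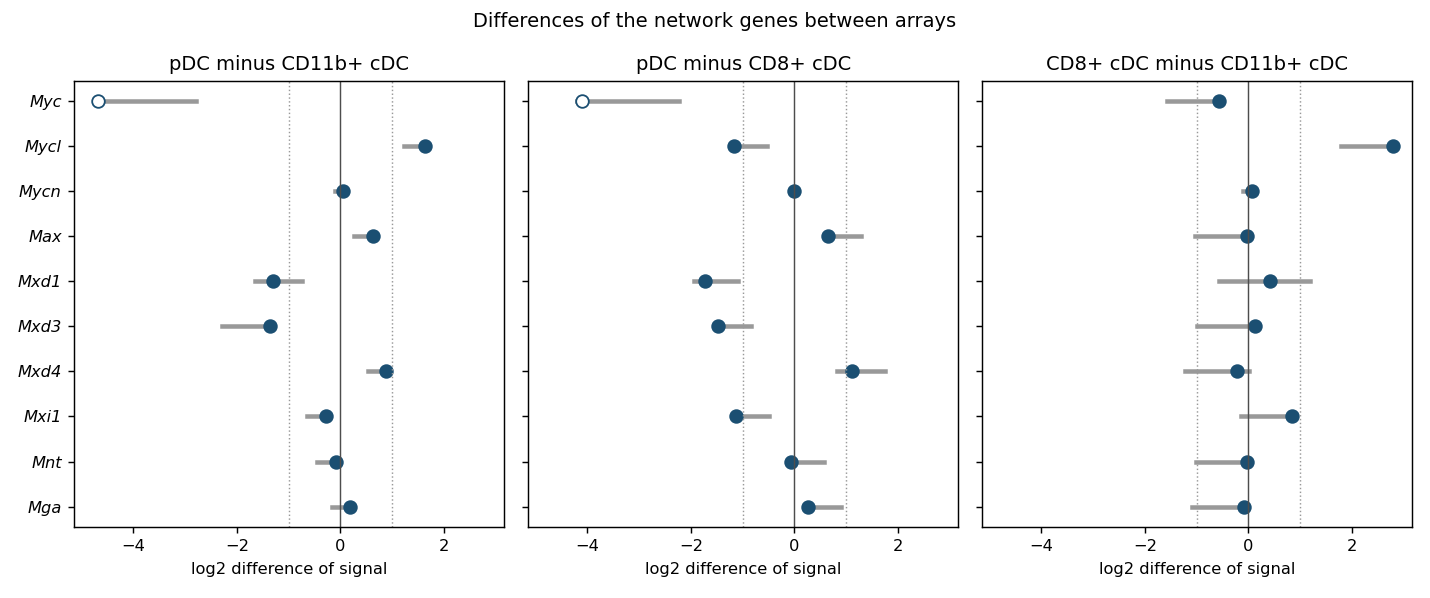
Log2 difference of signal for each network gene at its brightest probe set, in the 3 pairs of arrays; open circles are bounds with 1 array at background, grey bars span the values over the main setting and the 6 alternatives of background, floor, scaling and probe set, and dotted lines mark 2-fold. Myc stood lowest on the pDC side and Mycl highest in the comparison of CD8+ with CD11b+ cDC, at 2.80 on the deposited scale and 1.80 with spike-in scaling.

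Counted over the network, 18 of 27 probe sets were above background on at least 1 array and 9 on none, and every gene had at least 1 measured probe set. Against CD11b+ cDC, 1 of 10 members was higher in pDC (Mycl), where 15.0% of all measured genes were. In the other direction 3 of 10 were higher in CD11b+ cDC (Myc, Mxd1 and Mxd3), where 14.3% of all genes were. Against CD8+ cDC, 1 of 10 was higher in pDC (Mxd4; 16.0% of all genes), and 5 of 10 were higher in CD8+ cDC (Myc, Mycl, Mxd1, Mxd3 and Mxi1; 14.8% of all genes). Between the conventional subsets, 1 of 10 was higher in CD8+ cDC (Mycl; 9.86%) and 0 of 10 in CD11b+ cDC (10.3%). Counts of 1 in 10 lie near these backgrounds. The median absolute log2 difference of the members was 0.76 and 1.12 in the pDC comparisons, against 0.52 and 0.54 for all genes. Between the conventional subsets it was 0.17, against 0.39 for all genes. Both pDC comparisons use the same pDC array, so their values are not separate evidence.

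Few genes followed the profile of either paralog closely. Likeness was the Euclidean distance between log2 profiles over the 3 arrays, each centred on its own mean, among 9288 genes past 4 times background on the brightest array. Within 0.25 of Myc lay 16 genes and within 0.25 of Mycl 8. Nearest to Myc were Birc5, the mitotic survivin gene (distance 0.04), the prion protein gene Prnp (0.04), the kinetochore gene Cenpf (0.04), Fignl1, of recombinational DNA repair (0.08), and Uhrf1, of maintenance DNA methylation (0.09). Nearest to Mycl were Oxct1, the ketone-body enzyme gene (0.05), Mospd1 (0.18), Rcbtb2 (0.20), Nfxl1 (0.21) and Pvr, the poliovirus receptor gene (0.21). Oxct1 read 21093 in pDC, 7107 in CD11b+ and 48001 in CD8+ cDC. With 3 points to a profile, likeness is a description only. The profile of Myc rests on where its pDC value was floored. With background at 412, an alternative chosen after seeing the data, 0 of the 5 genes named for Myc were still among its 5 nearest and 2 of those named for Mycl were. Without a floor, 4 and 5 were.

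Transcription factors and cytokine receptors of DC listed as candidate regulators of Myc family genes held wide differences. Of 14 such genes, 3 were higher in pDC and 5 in CD11b+ cDC in that pair, beside 15.0% and 14.3% of all genes. In the pair of pDC and CD8+ cDC the counts were 3 and 3, beside 16.0% and 14.8%. Regulation of Myc family genes by them was not tested. Irf8, the transcription factor on which CD8+ cDC depend, read 646349 in pDC, 11554 in CD11b+ and 534491 in CD8+ cDC. It was 46.3-fold higher in CD8+ than in CD11b+ cDC, and pDC and CD8+ cDC were 1.21-fold apart. Irf4, its relative, was 13.7-fold higher in CD11b+ than in CD8+ cDC. Batf3, the cDC partner of Irf8, was 176-fold and 219-fold lower in pDC, the repressor gene Bcl6 6.23-fold and 8.54-fold lower, and Csf2ra, a subunit of the GM-CSF receptor, 4.95-fold and 6.53-fold lower. Csf2rb2 was 14.5-fold and 7.05-fold higher in pDC. Foxo3, a factor of quiescence, was 2.07-fold and 3.14-fold higher there.

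The machinery with which the network works was nearly level between subsets. Of 14 measured SIN3 and NCoR corepressor genes, 0 reached 2-fold between pDC and CD11b+ cDC, and 1 did in each other pair: Arid4a was 2.21-fold above pDC in CD8+ cDC, and Suds3 2.29-fold higher in CD11b+ than in CD8+ cDC. Of 17 MYC coactivator genes, 0 differed between pDC and CD11b+ cDC. Crebbp, an acetyltransferase gene, was 2.07-fold higher in pDC than in CD8+ cDC, and the ATPase gene Ruvbl1 2.73-fold higher in CD8+ than in CD11b+ cDC. Of all genes, 15.0% were higher and 14.3% lower in pDC than in CD11b+ cDC, and 16.0% and 14.8% in pDC than in CD8+ cDC. Between the conventional subsets 9.86% were higher in CD8+ cDC and 10.3% in CD11b+ cDC. Medians of the corepressor and coactivator lists lay within 0.15 of 0 (log2) in every pair on the deposited scale. With spike-in scaling they followed the shift of the median gene, to -0.98 and -1.11 for CD8+ minus CD11b+ cDC.

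Of 7 measured genes of the PRC1.6 complex that holds Mga, Yaf2 was 2.16-fold higher in CD11b+ cDC than in pDC. L3mbtl2, its chromatin reader gene, was 2.64-fold lower in CD8+ cDC than in pDC and 2.51-fold lower than in CD11b+ cDC. In the parallel branch, whose factors pair with Mlx and sense glucose, Mlx and Mlxip stayed under 2-fold. Their target Txnip, an inhibitor of glucose uptake, read 141888 in pDC, 108273 in CD11b+ and 39732 in CD8+ cDC, where it was 3.57-fold and 2.73-fold lower.

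Genes that control Myc protein went both ways. Of 17 measured, 2 were higher in pDC than in CD11b+ cDC, the ubiquitin ligase genes Fbxw7 (2.13-fold) and Fbxl14 (2.44-fold), and 3 were lower. Both counts lie near the shares of all genes, 15.0% and 14.3%. The lower ones were Aurka (at least 27.0-fold), Cip2a (10.6-fold) and Skp2 (2.18-fold). Aurka and Cip2a, at least 19.4-fold and 16.0-fold lower in pDC than in CD8+ cDC, protect Myc protein from degradation and are also genes of mitosis. With spike-in scaling 0 were higher in pDC than in CD11b+ cDC and 3 were lower. Protein was not measured.

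MYC target genes did not move as 1 block with Myc. Of 96 measured over 5 lists, 17 were higher in CD11b+ cDC than in pDC and 4 lower, or 17.7% and 4.17%, beside 14.3% and 15.0% of all genes. Against CD8+ cDC, 18 were lower and 5 higher in pDC, or 18.8% and 5.21%, beside 14.8% and 16.0%. The pooled median was -0.21 (log2) for pDC minus CD11b+ cDC and -0.37 for pDC minus CD8+ cDC, and the latter turned to 0.27 with spike-in scaling, where the median gene stood at 0.65. With that scaling the counts against CD8+ cDC turned to 10 lower and 14 higher in pDC, and those against CD11b+ cDC became 24 lower and 2 higher. Between the conventional subsets 5 were higher in CD8+ cDC and 6 in CD11b+ cDC, against 9.86% and 10.3% of all genes, and with spike-in scaling 0 and 42. Leaving out the list of cell cycle entry genes described below left 84 targets. On the deposited scale 10 of them (11.9%) were lower and 4 (4.76%) higher in pDC than in CD11b+ cDC. Against CD8+ cDC 12 (14.3%) were lower and 4 (4.76%) higher. The shares lower in pDC then did not exceed those of all genes, while the shares higher in pDC lay below the 15.0% and 16.0% of all genes. The medians of these 84 were -0.18 and -0.36 (log2), beside -0.21 and -0.37 for all 96.

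Folds of list genes are on the deposited scale, and calls against the direction of the spike-in shift were lost most often. Over all lists together, all 40 genes lower in pDC than in CD11b+ cDC, all 13 higher in pDC than in CD8+ cDC and all 14 higher in CD11b+ than in CD8+ cDC stayed past 2-fold with spike-in scaling. Of 10 higher in pDC than in CD11b+ cDC, 5 did not (Fbxw7, Fbxl14, Tbrg4, Odc1 and Foxo3). Of 39 higher in CD8+ cDC than in pDC, 11 did not, among them Arid4a, Iars, Ppan and Umps. Of 11 higher in CD8+ than in CD11b+ cDC, 8 did not (Ruvbl1, Ppan, Polr1a, Odc1, Pgk1, Iars, Ndrg1 and Csf2rb2).

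The largest list, 40 nucleolar and ribosome biogenesis genes, stayed nearly level, with a median of -0.17 for pDC minus CD11b+ cDC and -0.33 for pDC minus CD8+ cDC (0.31 with spike-in scaling). In the first pair 3 were lower in pDC and 1 higher, beside 14.3% and 15.0% of all genes. The lower ones were the pre-ribosome factor gene Wdr12 (3.18-fold), the RNA polymerase I subunit gene Polr1a (2.22-fold) and Pa2g4 (2.05-fold), and Tbrg4 was 2.39-fold higher. In the second pair 4 were lower and 0 higher, beside 14.8% and 16.0% of all genes. Polr1a (8.77-fold), Wdr12 (3.78-fold) and Pes1 (3.24-fold) led the lower ones. Polr1a and Ppan were also 3.96-fold and 2.92-fold higher in CD8+ than in CD11b+ cDC. Of 11 translation factor and chaperone genes, Iars, an aminoacyl-tRNA synthetase gene, was higher in CD8+ cDC, 2.48-fold over pDC and 2.16-fold over CD11b+ cDC, and the other 10 stayed under 2-fold.

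Metabolic targets went both ways. Among 20 nucleotide and polyamine genes, Mthfd2, the mitochondrial folate enzyme gene, was 6.54-fold and 8.52-fold lower in pDC, and Tyms 2.68-fold lower in pDC than in CD11b+ cDC. Odc1, the first enzyme of polyamine synthesis and a classical MYC target, read 108734 in pDC, 46502 in CD11b+ and 100539 in CD8+ cDC. It was therefore 2.34-fold higher in pDC than in CD11b+ cDC, the opposite of Myc. Prps2, of nucleotide synthesis, was 5.30-fold higher in pDC than in CD8+ cDC. Of 13 glucose and amino acid genes, the hexokinase gene Hk2 was 12.7-fold and 11.3-fold lower in pDC, and the glycolytic genes Tpi1 and Pgk1 3.34-fold and 3.21-fold lower in pDC than in CD8+ cDC. The transferrin receptor gene Tfrc was 2.63-fold and 11.6-fold higher in pDC, and the amino acid transporter gene Slc7a5 2.76-fold higher than in CD11b+ cDC.

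Targets of cell cycle entry were mostly lower in pDC. Of 12, 7 were lower in pDC than in CD11b+ cDC and 0 higher (median -1.56), beside 14.3% and 15.0% of all genes. E2f2 was 30.1-fold, Ccne1 9.21-fold and Mcm5 7.71-fold lower. Against CD8+ cDC 6 were lower and 1 higher (median -1.08), beside 14.8% and 16.0% of all genes. Ccne1 was 6.05-fold, Mcm5 5.79-fold and E2f2 3.60-fold lower, and the cyclin gene Ccnd1 was 3.39-fold higher in pDC. With spike-in scaling the counts against CD8+ cDC became 3 lower and 3 higher (median -0.44), and those against CD11b+ cDC 9 lower and 0 higher. Between the conventional subsets Ccnd2 was 10.1-fold, E2f2 8.36-fold and Ccnd1 5.66-fold higher in CD11b+ cDC. All 11 measured proliferation genes were lower in pDC than in either cDC array (median -5.52 and -4.63), and these counts were 11 of 11 with spike-in scaling too. The medians depend on the floor, since Cdk1, Bub1 and Plk1 were at background in pDC. With background at 412 they were -4.05 and -3.67, with the mean over probe sets -4.66 and -4.14, and with spike-in scaling -5.56 and -3.99. The pDC array was thus low for Myc, for Mxd3 and for genes of dividing cells alike, and the part of cell division in the values of Myc and Mxd3 was not tested.

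Genes that MYC represses went both ways, and repression by Myc was not tested. Of 12 measured, 3 were lower and 1 higher in pDC than in CD11b+ cDC, beside 14.3% and 15.0% of all genes. Against CD8+ cDC 4 were lower and 2 higher, beside 14.8% and 16.0%. The list medians were 0.19 and -0.06 (log2). Cdkn1a, the cell cycle inhibitor p21, read 583 in pDC, 3136 in CD11b+ and 14413 in CD8+ cDC, and was 5.38-fold and 24.7-fold lower in pDC. Cdkn2b, the inhibitor p15, was 16.6-fold and 8.61-fold lower. Both were thus lowest on the array where Myc was at background. Gadd45a was 5.27-fold higher in pDC than in CD11b+ cDC, and Cdkn2c 2.73-fold higher than in CD8+ cDC.

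**Figure D3:**
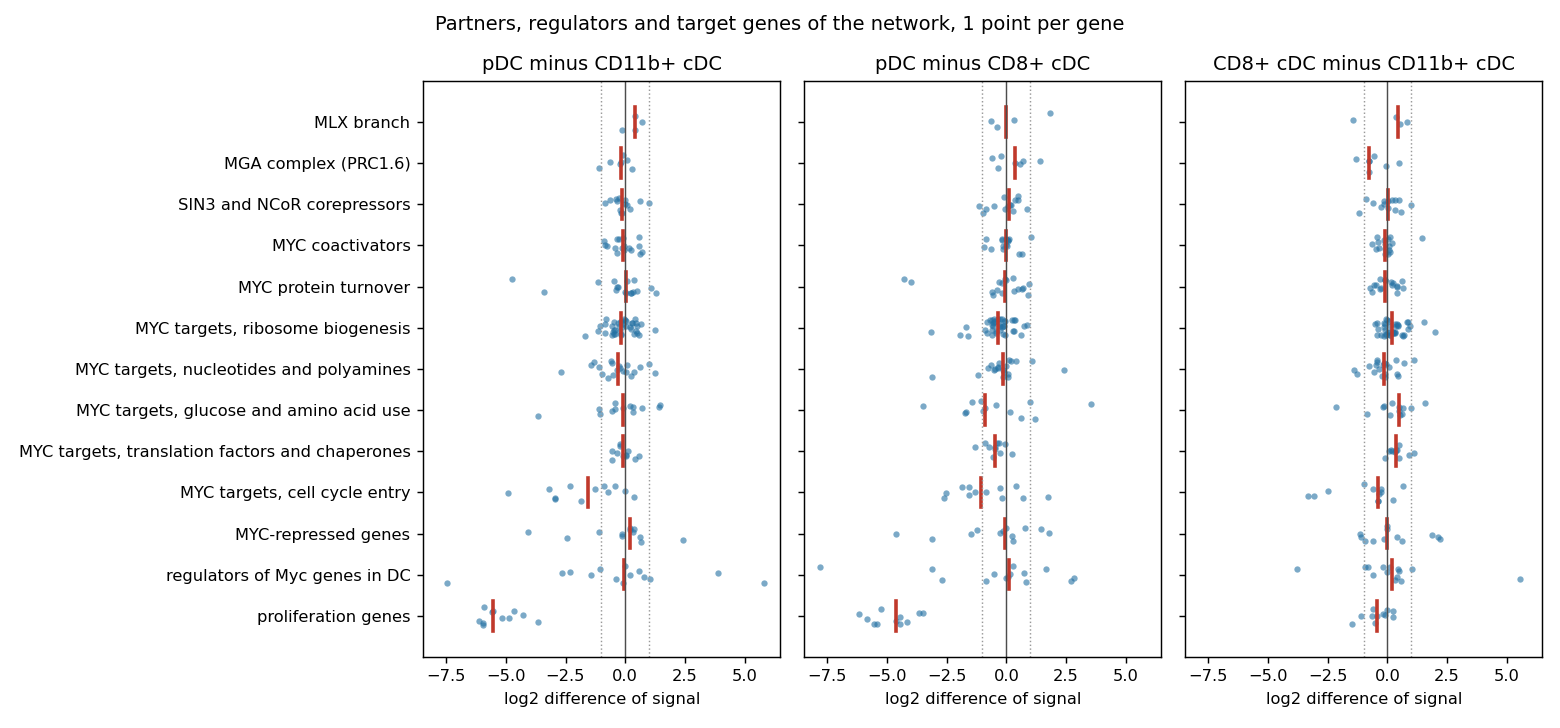
Log2 difference of signal of each measured gene in 13 lists of partners, regulators and targets, in the 3 pairs of arrays; each blue point is a gene at its brightest probe set, red bars are list medians and dotted lines mark 2-fold. Corepressors and coactivators cluster at 0, while proliferation genes lie far to the left in both pDC comparisons, with medians of -5.52 and -4.63.

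Markers of other cells differed between the arrays in several directions. Of 6 matched neutrophil markers, S100a8, S100a9, Mpo, Ngp and Camp were higher in CD11b+ cDC than on both other arrays, and the summed signal was 2543 in pDC, 16516 in CD11b+ and 1252 in CD8+ cDC. Of 6 monocyte and macrophage markers, Csf1r, Adgre1, C1qa and C1qb were higher in CD11b+ cDC than on both other arrays. Cd14 was 1.89-fold above pDC there, under 2-fold. Vcam1 was brightest in CD8+ cDC, with 20551 in pDC, 58884 in CD11b+ and 68203 in CD8+ cDC. The sums of the 6, in which Vcam1 is included, were 38579, 218272 and 93492. CD11b+ cDC was also the brightest array for Myc. B cell markers were mixed. Cd79a and Pax5 were below background on all arrays, Ms4a1 read 223 in pDC, 11047 in CD11b+ and 19147 in CD8+ cDC, Cd79b ran the opposite way with 10103, 4026 and 381, and Cr2 was above background in CD11b+ cDC alone. Of the 5 B cell markers the sum was 10508, 15688 and 19709. Among T cell markers Cd3e, Cd3g and Cd3d were below background on all arrays, but Cd28 was at least 43.4-fold higher in pDC than in either cDC array and Cd5 was highest in CD11b+ cDC, and the sums were 5341, 3059 and 664. Of 4 plasma cell markers, Sdc1 was at least 30.2-fold higher in pDC than in either cDC array and Tnfrsf17 was below background throughout. Jchain was brightest in CD11b+ cDC, with 7870 in pDC, 14060 in CD11b+ and 957 in CD8+ cDC, and Derl3 stayed under 2-fold. The sums were 11663, 14508 and 1660. Of 4 erythroid markers, Klf1 was 2.11-fold higher in CD11b+ cDC than in pDC and Hba-a1 was below background throughout, with sums of 2452, 3882 and 2529. Of 5 NK cell markers, 4 were below background throughout, Gzma was 2.06-fold and 2.07-fold higher in CD11b+ cDC than in pDC and CD8+ cDC, and the sums were 579, 942 and 565. The part of these cells in the values of Myc and the other members was not tested.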

How the data were processed

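Each of the 3 cell types has 1 array of 45101 probe sets. What the authors deposited is a linear signal intensity for every probe set, made with MAS5 per the submitters' processing notes, which give no version. The 3 arrays have nearly the same distribution (sorted columns depart from their average by 0.01 in log2), and any scaling between arrays is not stated in the labels. The number of arrays limits the precision.

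Probe sets were named by the platform annotation, in which 34958 carry a single gene. Background was the 95th percentile of 87 probe sets of olfactory, vomeronasal, trace amine and taste receptors taken as the highest of the 3 arrays, or 111. Values below it were set to it before log2. The probe set with the largest average log2 signal stood for its gene, and no level was compared across genes. Calls needed 2-fold and a brighter array above background. The procedure recovered folds planted in simulated data, all past the 2-fold rule, in bright genes with little noise. That says nothing of dim readings.

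All members are named, and of each list up to 3 called genes per direction and pair. The members and lists were chosen with earlier results of these data known. Of 213 list entries 198 were matched and 15 were not analysed here, and of 71 marker entries 60 were. Promoters came from RefSeq (GRCm38.p6), and Myc had no entry there. There were 8 alternatives. Python with numpy 2.4.6 and pandas 2.3.3 was used.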

Additional observations from a re-analysis of the deposited data

How the results depend on the processing

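Of 48 counts of members recomputed under 8 alternatives, 37 stayed within 1.5 times the main count. This is a weak gauge, since most main counts were 0 or 1, where it only asks for no change. A fall from 3 to 2 also passed, as when Mxd1 lost its call against CD11b+ cDC with the mean over probe sets. Scaled on spike-ins, members higher in pDC than CD8+ cDC went from 1 to 2 (Max joining Mxd4), beside 33.7% of all genes. Those higher in CD8+ cDC than pDC went from 5 to 2 (Myc and Mxd1), beside 9.73%. Those higher in CD11b+ than CD8+ cDC went from 0 to 5 (Myc, Max, Mxd4, Mnt and Mga), beside 45.4%. With the mean over probe sets, 0 members were higher in pDC than CD8+ cDC (15.1% of all genes). In that setting 2 were higher in CD8+ than CD11b+ cDC, beside 979 of 10718 genes. At 3-fold, 1 member was higher in CD11b+ cDC than pDC (Myc), beside 9.34% of all genes. Against CD8+ cDC 0 were higher in pDC (9.56%) and 2 lower (9.63%). At 1.5-fold, 3 were higher in pDC than CD11b+ cDC (24.4%) and 2 in pDC than CD8+ cDC (25.3%). At that fold 2 were higher in CD8+ than CD11b+ cDC, beside 1886 of 10707 genes. No member called on the deposited scale with the 2-fold rule changed sign under any alternative, while Mxd1, at 1.19 for CD8+ minus CD11b+ cDC with the mean over probe sets, was at -0.57 with spike-in scaling. Counts over all genes (first array higher, then lower) were 1620 and 1542 of 10796, 1730 and 1604 of 10821, and 1056 and 1101 of 10707 in the 3 pairs. With spike-in scaling they became 1139 and 2130 of 10687, 3389 and 979 of 10065, and 408 and 4775 of 10510. Of the same genes as in the main setting, they were 911 and 1008, 1034 and 1042, and 573 and 594 at 3-fold. At 1.5-fold they were 2638 and 2323, 2743 and 2372, and 1886 and 2014. No replicate could be left out, since each cell type has 1 array. No paired analysis was possible because there are no replicates. Myc lay at background in pDC alone, and Mycn and 1 Mxi1 probe set lay near it on most or all arrays, which limits their folds.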

Other observations

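On the pDC and CD8+ cDC arrays, the dim probe sets Mycn 1425922_a_at and Mxi1 1425732_a_at hold identical values, 124.7 and 125.6, while on the CD11b+ cDC array they hold 119.8 and 196.4. Cdk1, of the proliferation list and named here after its values were seen, likewise reads 5232.7 on both conventional arrays.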
